A study of Homo sapiens with 6 samples.

Results

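The 10 genes described here encode ligands, receptors, inhibitors and target genes of transforming growth factor beta (TGF-beta) and bone morphogenetic protein (BMP) signalling, and were followed in HCC-LM3, a line of human hepatocellular carcinoma cells with high metastatic potential. They were taken by symbol (TGFB1, TGFB2, TGFBR1, TGFBR2, SMAD7, SKIL, TGIF1, ID1, ID2 and ID3) from the 23059 genes of the tables. All 10 were in the tables, and all 10 passed the filter on low counts with 15173 genes in all. One group received apigenin (a flavone found in plants) and the control group DMSO, and total RNA of 3 samples per group was sequenced to ask how apigenin changes transcription. The labels call the samples biological replicates without saying what was repeated, so p-values measure the spread between these samples. Both groups are the same line with no other treatment named, and neither the dose nor the time of treatment is stated in the labels. One line stands here for the tumour, and the RNA level says nothing of secreted or activated protein.

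TGF-beta ligands are secreted in a latent form and, once released, bind the type II receptor TGFBR2, which recruits and phosphorylates the type I receptor TGFBR1. The receptor phosphorylates SMAD2 and SMAD3, which enter the nucleus with SMAD4, and BMP ligands act in the same way through SMAD1 and SMAD5, for which ID1, ID2 and ID3 are classic targets. SMAD7, SKIL and TGIF1 restrain the pathway, and SMAD7 and SKIL are themselves induced by it. In liver, TGF-beta is known for growth arrest of hepatocytes, for fibrosis and, in carcinoma cells, for a shift towards a mesenchymal state.

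Library totals ranged from 33882145 to 37983636 counts. The apigenin libraries differed from the DMSO mean along gene length. Their slopes were -0.071, -0.021 and -0.147 log2 units per doubling of length in apigenin 1, 2 and 3. Those of the DMSO libraries were -0.0047 to 0.0032, and cancel out on average because these libraries make up that mean. Each apigenin slope was negative, so the trend cannot be told apart from an effect of apigenin. Removing the trend may remove such an effect. Because of this trend, the edgeR fold changes and calls below were also computed with each library's length trend removed. Levels, ratios, correlations, overlaps of libraries and differences of single libraries are from values with the trend left in. Of the liver markers, KRT8, KRT18 and ALB were well expressed. The summed level of the 7 listed markers was 3542 to 3627 CPM (counts scaled to library size) with DMSO and 3091 to 3582 with apigenin. Nearly all of it was KRT8 and KRT18. ALB itself had 119 to 125 CPM with DMSO and 51.5 to 53.9 with apigenin, and SERPINA1 had 37.9 to 42.3 and 18.9 to 21.7 CPM. AFP, TTR and APOA1 were at most 8.16, 3.68 and 1.94 CPM in any library. Markers of other cells summed to 23.8 to 25.9 and 29.3 to 31.8 CPM for 6 fibroblast genes, nearly all of it LUM, and to 105 to 111 and 87.1 to 96.3 CPM for 4 endothelial genes, nearly all of it PECAM1 and KDR. The 5 leukocyte genes summed to 86.8 to 94.8 and 85.8 to 95.6 CPM, nearly all of it CD68. Of the same lists, COL1A2, PDGFRB, CDH5 and PTPRC did not exceed 0.268 CPM in any library, while LUM, PECAM1, KDR and CD68 reached 30.1, 53.2, 57.4 and 93.8 CPM. The part of the other marker genes in the results was not tested, and in bulk RNA fewer cells of a type cannot be told apart from less RNA per cell.

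With apigenin, TGFB1 fell by 22.5%, ID3 fell by 20.6% and TGIF1 rose by 19.5%, while the other 7 members did not pass the test. A gene is called where the adjusted p of edgeR's quasi-likelihood test (Benjamini-Hochberg over all 15173 genes) is under 0.05. The 2 members called lower stand beside 4.22% of all tested genes called lower, and the 1 called higher beside 2.76% called higher. In 3 members (TGFB1, TGFBR2 and ID3) the apigenin libraries lay below the DMSO libraries with no overlap, as they did in 15% of all tested genes, and in 1 member (TGIF1) they lay above, as in 14.4%. The median log2 fold change of the members was -0.12, against 0.0039 for all tested genes, and -0.088 against 0.0061 with the length trend removed. These counts are small, and leaving out single libraries moved them: 0 members were called lower without DMSO 2, DMSO 3 or apigenin 1, 1 without DMSO 1, and 5 without apigenin 2. Over all genes, the fits without DMSO 1, 2, 3 or apigenin 1 called 157 to 184 lower, of 15544 to 15610 tested. Without apigenin 2, 1546 of 15513 genes were called lower. Calls without apigenin 2 given below stand beside that larger share. Levels below are CPM with TMM scaling as mean ± SD of 3 libraries, and each log2 fold change sets apigenin over DMSO and stands with its SE.

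**Figure D1:**
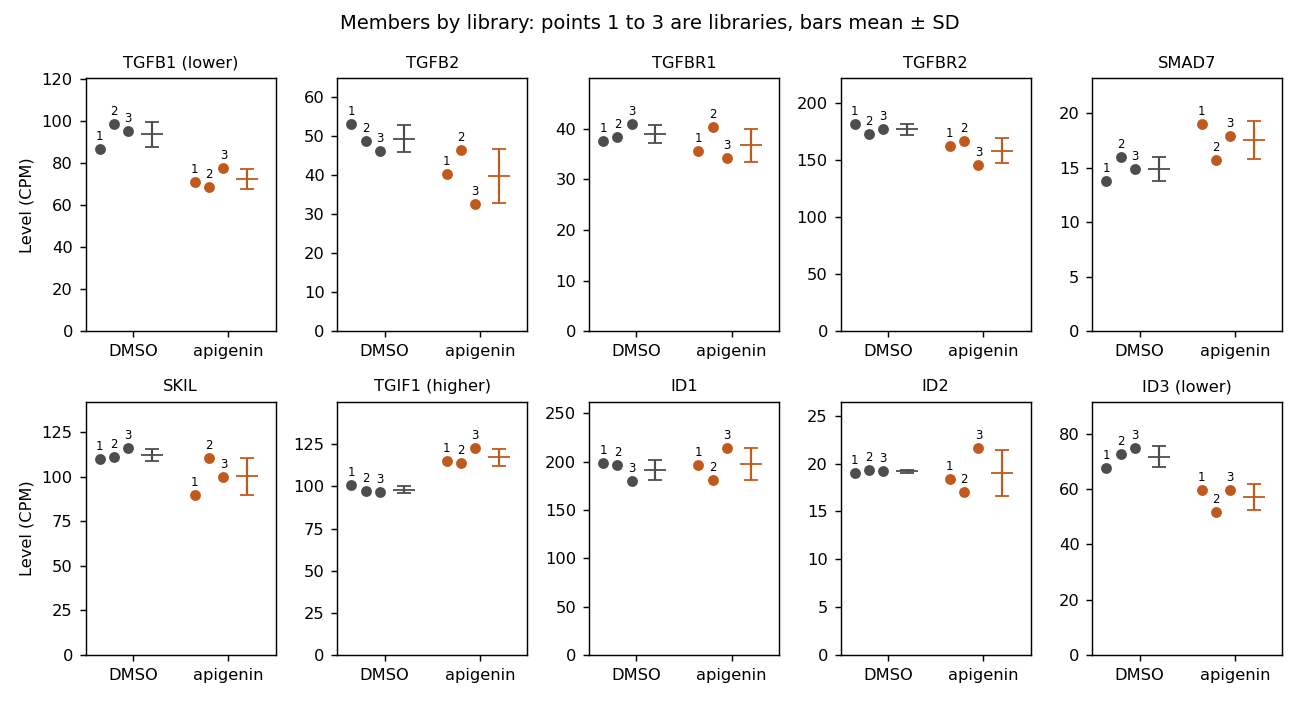
Level (CPM, y axis from 0) of each of the 10 members in the 3 DMSO and 3 apigenin libraries. Points numbered 1 to 3 are libraries and bars are mean ± SD. TGFB1 (68.7 to 77.8 CPM with apigenin) and ID3 (51.7 to 59.9) lie below all DMSO libraries and TGIF1 (114.0 to 122.9) above them, while ID1, ID2, TGFB2, TGFBR1, SMAD7 and SKIL overlap.

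Per length, ID1, ID3 and TGFB1 were the most abundant members. Levels between genes are compared as FPKM (counts scaled to gene length and library total), the authors' deposited values. With DMSO, ID1 stood at 157 ± 8.71 FPKM (n = 3), above 98.02% of tested genes, and ID3 at 75.6 ± 3.96 FPKM. TGFB1 followed at 33.6 ± 2.22, TGFBR2 at 26.6 ± 0.654 and TGIF1 at 18.2 ± 0.425 FPKM. SKIL, at 15.04 ± 0.419, and ID2, at 14.8 ± 0.135 FPKM, overlapped and cannot be ordered. TGFB2 had 8.29 ± 0.597 FPKM. SMAD7 (4.02 ± 0.307) and TGFBR1 (3.88 ± 0.166 FPKM) closed the order and also overlapped. The DMSO libraries of all other neighbours in this order did not overlap. With apigenin the order of the means was the same except that ID2 (14.6 ± 1.67 FPKM) stood before SKIL (13.4 ± 1.45), and their ranges overlapped again. RNA of the type II receptor was thus the more abundant of the receptor pair. The TGFBR2 to TGFBR1 FPKM ratio was 6.52 to 7.28 in the DMSO and 6.22 to 6.89 in the apigenin libraries. This ratio rests on the fixed lengths behind the FPKM, 6673 nucleotides for TGFBR2 and 10054 for TGFBR1.

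**Figure D2:**
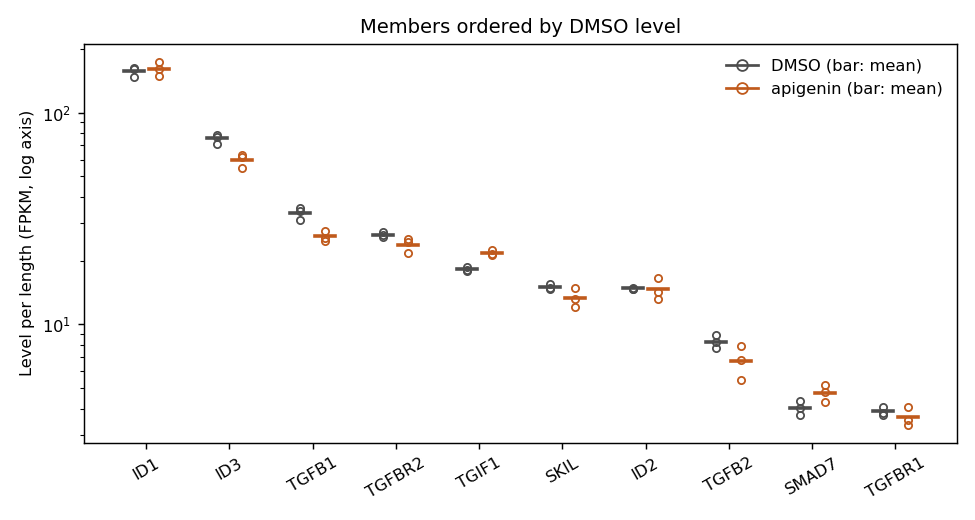
Level per length (FPKM, log axis) of the members, ordered by their DMSO mean. Open circles are libraries and bars are means of 3. ID1 is highest at a DMSO mean of 157 FPKM, and SMAD7 and TGFBR1 are lowest near 4.02 and 3.88.

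TGFB1 (chromosome 19, 41330323 to 41353922, GRCh38, minus strand), the main TGF-beta ligand of most tissues, had 86.7, 98.5 and 95.3 CPM in DMSO 1, 2 and 3 and 71.1, 68.7 and 77.8 CPM in apigenin 1, 2 and 3. All 3 apigenin libraries lay below all 3 DMSO libraries. The mean fell from 93.5 ± 6.08 to 72.5 ± 4.7 CPM, a log2 fold change of -0.37 ± 0.071 (edgeR adjusted p = 0.0076, n = 3 per group). That call was lost without DMSO 2 (-0.33, edgeR adjusted p = 0.0683), DMSO 3 (-0.35, adjusted p = 0.0605) or apigenin 1 (-0.36, adjusted p = 0.0605), with adjusted p from 1.45e-06 to 0.0836 over 18 alternatives. With the length trend removed it stood at -0.41 (adjusted p = 9.04e-05). By Pearson correlation of log2 CPM over the 6 libraries, the genes most like TGFB1 among 10711 with a mean of 5 CPM or more were TOB1 (0.998), SLC16A5 (0.991) and AP1M2 (0.989). None of these 3 was called (edgeR adjusted p = 0.0623, 0.132 and 0.127), and the 6 points of each correlation share the split into 2 groups.

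TGFB2 (chromosome 1, 218345336 to 218444619), a second ligand of the same receptors, varied among the apigenin libraries. It had 53.1, 48.8 and 46.2 CPM with DMSO and 40.3, 46.5 and 32.7 CPM with apigenin, so that apigenin 2 lay within the DMSO range and apigenin 3 was lowest. The log2 fold change was -0.31 ± 0.106 and was not called (edgeR adjusted p = 0.0948, 95% interval before adjustment -0.54 to -0.079). It was called without apigenin 2 (-0.44, adjusted p = 0.00439), with the replicate number as a block (-0.32, adjusted p = 0.031) and without the filter on low counts (-0.31, adjusted p = 0.00452). TGFB2 overlaps TGFB2-AS1, which had 5 to 18 reads per library. The within-library FPKM ratio of TGFB1 to TGFB2 was 3.49 to 4.41 with DMSO and 3.16 to 5.08 with apigenin, and the groups overlapped.

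The receptor genes did not pass the test. TGFBR2 (chromosome 3, 30606356 to 30694142) had 182, 173 and 177 CPM with DMSO and 162, 167 and 146 CPM with apigenin. The groups did not overlap, but the difference was -0.16 ± 0.062 (edgeR adjusted p = 0.124, interval before adjustment -0.29 to -0.029). It was called without apigenin 2 (-0.20, adjusted p = 0.0271) and stood at -0.084 with the length trend removed (adjusted p = 0.271). TGFBR1 (chromosome 9, 99103647 to 99154192), the longest member at 10054 nucleotides, had 37.6, 38.3 and 41.0 CPM with DMSO and 35.6, 40.4 and 34.2 with apigenin. These values overlapped (-0.09 ± 0.081, adjusted p = 0.564, interval -0.26 to 0.088), and the sign turned with the length trend removed (0.057, adjusted p = 0.672).

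Of the 3 inhibitors, TGIF1 rose, and SMAD7 and SKIL did not pass the test. TGIF1 (chromosome 18, 3412009 to 3459978), a homeodomain corepressor of SMAD2 and SMAD3, had 101, 97.3 and 96.4 CPM in the DMSO libraries and 115, 114 and 122.9 CPM in the apigenin libraries. It rose from 98.1 ± 2.23 to 117 ± 4.92 CPM with no overlap, a log2 fold change of 0.26 ± 0.059 (edgeR adjusted p = 0.0208). Its call was lost without DMSO 1, 2 or 3 (adjusted p = 0.0998, 0.108 and 0.131) or apigenin 1 (adjusted p = 0.0756), at 0.24 to 0.28, and was held without apigenin 2 or 3. With the length trend removed TGIF1 stood at 0.30 (adjusted p = 0.0012).

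SMAD7 (chromosome 18, 48919853 to 48950965), which blocks the type I receptor, had 13.8, 16 and 14.8 CPM with DMSO and 19, 15.7 and 17.9 with apigenin. Apigenin 2 lay within the DMSO range, and the difference of 0.24 ± 0.108 was not called (edgeR adjusted p = 0.199, interval before adjustment 0.0036 to 0.47). SMAD7 rested on 512 to 644 reads per library, for which counting alone gives a spread of 4.16%, beside 7.47% and 9.69% observed in the DMSO and apigenin libraries. SKIL (chromosome 3, 170357715 to 170396849), a corepressor that holds SMAD complexes inactive, had 110, 111 and 116 CPM with DMSO and 90.1, 111 and 99.9 with apigenin. Apigenin 2 was again at the DMSO level, and the difference was -0.17 ± 0.073 (adjusted p = 0.179, interval -0.32 to -0.0098). SKIL was called without apigenin 2 (-0.25, adjusted p = 0.0132) and stood at -0.068 with the length trend removed (adjusted p = 0.544).

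Of the 3 ID genes, which encode helix-loop-helix proteins that lack a DNA-binding region and sequester E proteins, ID3 fell and ID1 and ID2 did not pass the test. ID3 (chromosome 1, 23557926 to 23559501) had 67.6, 72.9 and 75.1 CPM in the DMSO libraries and 59.9, 51.7 and 59.7 CPM in the apigenin libraries. It fell from 71.9 ± 3.81 to 57.1 ± 4.69 CPM with no overlap, by 0.33 on the log2 scale (SE 0.075, edgeR adjusted p = 0.0185). The call was lost without DMSO 1, 2 or 3 (adjusted p = 0.0554, 0.0954 and 0.12) or apigenin 1 (adjusted p = 0.0581), at -0.38 to -0.30. ID3 is the shortest member at 950 nucleotides, and with the length trend removed it stood at -0.49 (adjusted p = 3.15e-05), a larger fall than in the deposited counts.

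ID1 (chromosome 20, 31605289 to 31606510) had 198, 197 and 180 CPM with DMSO and 196, 181 and 215 with apigenin. The groups overlapped at 192 ± 10.2 and 197 ± 16.6 CPM (0.04 ± 0.068, edgeR adjusted p = 0.759, interval before adjustment -0.10 to 0.19). ID2 (chromosome 2, 8682056 to 8684461) had 19, 19.3 and 19.2 CPM with DMSO, and 18.4, 17 and 21.7 with apigenin, so that apigenin 2 lay lowest and apigenin 3 highest (-0.013 ± 0.10, adjusted p = 0.961, interval -0.23 to 0.21). With the length trend removed ID1 stood at -0.093 and ID2 at -0.15, neither called (adjusted p = 0.233 and 0.35). Within a library, the FPKM ratio of ID1 to ID3 was 2.28, 2.10 and 1.86 with DMSO and 2.55, 2.73 and 2.80 with apigenin. The ID3 to ID2 ratio was 4.86, 5.16 and 5.34 with DMSO and 4.46, 4.14 and 3.76 with apigenin. Neither ratio overlapped between the groups (exact two-sided permutation p = 0.1 for each, the smallest that 3 against 3 can give, and 0.25 adjusted over the 5 ratios compared). These ratios were chosen after counts of the members had been seen. The other 3 ratios (ID1 to ID2, TGFB1 to TGFB2 and TGFBR2 to TGFBR1) overlapped, with exact permutation p = 0.5, 1 and 0.4.

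ID1, the abundant relative of ID3, was not called, which does not show that it differed from ID3. The 250 bases before the first start that RefSeq lists (GRCh38.p14) are shown for the 3 called members and for ID1. They are written 5′ to 3′ on the strand of the gene, at chr19:41353923-41354172 (minus strand), chr18:3411759-3412008 (plus), chr1:23559502-23559751 (minus) and chr20:31605039-31605288 (plus), and capitals mark GCGTG or its reverse complement CACGC, the core motif of the aryl hydrocarbon receptor.
TGFB1: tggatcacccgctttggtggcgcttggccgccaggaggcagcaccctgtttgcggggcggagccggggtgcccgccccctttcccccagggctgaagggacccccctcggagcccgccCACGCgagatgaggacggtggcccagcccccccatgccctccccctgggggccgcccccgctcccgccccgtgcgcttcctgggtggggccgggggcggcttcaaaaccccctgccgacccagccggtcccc
TGIF1: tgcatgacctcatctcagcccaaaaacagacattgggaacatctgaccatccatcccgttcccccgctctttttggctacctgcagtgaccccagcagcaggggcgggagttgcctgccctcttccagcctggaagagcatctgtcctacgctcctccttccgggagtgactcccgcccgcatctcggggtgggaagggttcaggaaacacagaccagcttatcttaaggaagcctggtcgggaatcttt
ID3: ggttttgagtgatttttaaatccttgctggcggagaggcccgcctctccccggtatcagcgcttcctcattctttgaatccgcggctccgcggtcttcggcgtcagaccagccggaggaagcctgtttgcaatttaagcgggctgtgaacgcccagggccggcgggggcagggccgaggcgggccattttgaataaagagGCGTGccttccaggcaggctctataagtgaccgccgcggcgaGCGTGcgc
ID1: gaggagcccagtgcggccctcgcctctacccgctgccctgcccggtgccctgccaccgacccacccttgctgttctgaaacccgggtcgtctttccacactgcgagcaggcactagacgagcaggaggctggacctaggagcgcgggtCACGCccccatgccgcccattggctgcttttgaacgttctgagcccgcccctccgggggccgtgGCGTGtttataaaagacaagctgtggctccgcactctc
RefSeq lists several starts for TGFBR1, TGFBR2, SMAD7 and TGIF1, and the window of the first listed start was searched for every gene. For TGFBR1 that window lies inside the gene span given above, not upstream of it. GCGTG was found on either strand in the windows of 5 of the 10 members (TGFB1, TGFBR1, ID1, ID2 and ID3) and in 31.9% of 27305 promoters of this length. ID1 and ID3 each held 2 matches, TGFB1 held 1 and TGIF1 held 0. The palindromic GC-rich SMAD element GGCGCC was found in 1 member, SKIL, and in 16.1% of all promoters. The SMAD palindrome GTCTAGAC was found in 0 members and in 0.176% of promoters. No match of these 3 motifs overlapped another in the printed windows. Windows of the TGFB1, ID1 and ID3 genes held 76.8, 66 and 62% G and C against a median of 58% over all promoters, and TGIF1 held 57.6%. A match is a description of letters and not of binding.

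Across members, the apigenin libraries did not keep one order. Apigenin 3 was lowest for TGFB2, TGFBR1 and TGFBR2, at log2 differences from the DMSO mean of -0.59, -0.19 and -0.28, and highest for TGFB1, TGIF1, ID1 and ID2, at -0.26, 0.33, 0.16 and 0.18. Apigenin 2 was nearest to the DMSO mean for TGFB2 (-0.083), TGFBR1 (0.052), TGFBR2 (-0.089), SKIL (-0.023), SMAD7 (0.077) and TGIF1 (0.22), but furthest from it for TGFB1 (-0.44) and ID3 (-0.47). TGFB2, TGFBR2 and TGFBR1 are among the longer members and ID1 and ID2 among the shorter, and apigenin 3 had the steepest slope on length. But SKIL, at 7485 nucleotides, was lowest in apigenin 1 (-0.32), and TGIF1, at 5381 nucleotides, was highest in apigenin 3. Whether length accounts for the order of the libraries was not tested. All 3 apigenin libraries lay on the same side of the DMSO mean for 7 members, below it for TGFB1, TGFB2, TGFBR2, SKIL and ID3 and above it for TGIF1 and SMAD7. The median difference of the 10 members was -0.13, -0.080 and -0.18 in apigenin 1, 2 and 3.

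**Figure D3:**
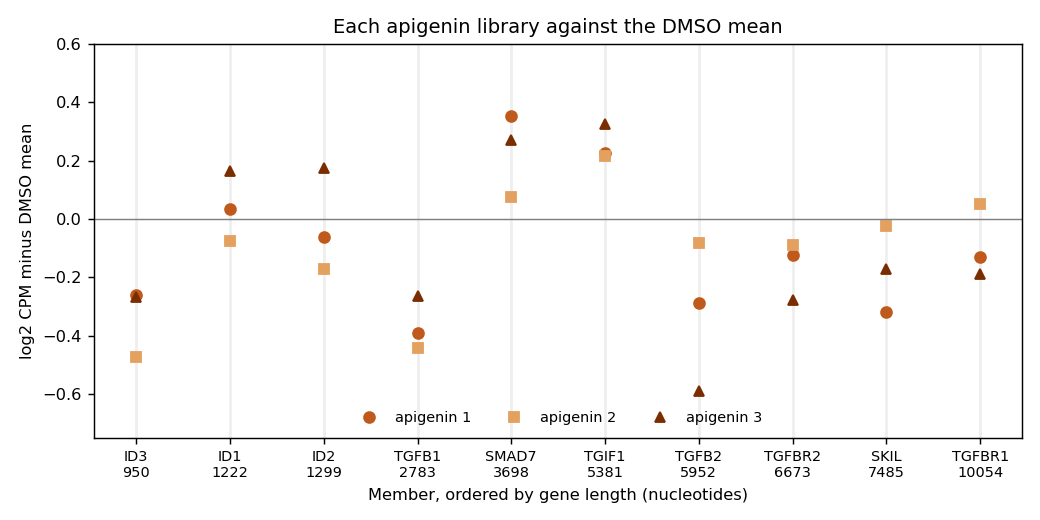
Difference of each apigenin library from the DMSO mean (log2 CPM, y axis) for each member, ordered along the x axis by gene length from 950 to 10054 nucleotides. Symbols are the 3 apigenin libraries. TGFB1, ID3 and TGIF1 keep one side of 0, as do TGFBR2, SKIL, SMAD7 and TGFB2, which were not called. TGFBR2 runs from -0.089 in apigenin 2 to -0.28 in apigenin 3, and TGFB2 from -0.083 to -0.59.

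Other genes of the pathway went both ways. Of 105 listed genes, 96 were in the tables and 76 were tested, and 5 of these rose, 7 fell and 64 did not pass. That is 15.8% called, against 6.99% of all tested genes. The median log2 fold change of the 76 was -0.060, against 0.0039 for all tested genes. With the length trend removed 7 were called higher and 6 lower. The lists were chosen with results of these data known.

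Of 12 other ligand genes tested, 2 rose. GDF15, a distant family member known as a stress-induced hormone, rose from 58.7 ± 2.84 to 90.2 ± 5.03 CPM (0.62 ± 0.068, edgeR adjusted p = 0.000124) and was called in each of the 18 alternatives. BMP2, a ligand of the BMP branch, rose from 70.3 ± 2.41 to 85.2 ± 4.2 CPM (0.28 ± 0.064, adjusted p = 0.0218). Its call was lost without DMSO 1, 2 or 3 or apigenin 1 (adjusted p from 0.0854 to 0.145). Of 10 tested genes of latency and activation, 2 fell. These were LTBP1, which tethers latent TGF-beta to the matrix (67.1 ± 1.82 to 54.9 ± 5.51 CPM, adjusted p = 0.0393), and ITGAV, the integrin alpha V subunit whose dimers release it (386 ± 13.7 to 313 ± 40.6 CPM, adjusted p = 0.0313). Both lost their call without any 1 DMSO library or apigenin 1 (edgeR adjusted p from 0.0942 to 0.171), and in every limma fit. Both are long (6912 and 7216 nucleotides). With the length trend removed they stood at -0.21 and -0.22, still called.

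Of 12 other receptors and coreceptors 1 fell, BMPR2, the BMP type II receptor, from 40.6 ± 0.867 to 32.7 ± 3.47 CPM (edgeR adjusted p = 0.04). Of 13 genes of corepression and turnover 1 fell, NEDD4L, a ubiquitin ligase of activated SMADs, from 49.7 ± 2.57 to 39.9 ± 1.51 CPM (adjusted p = 0.0181). Neither was called with the length trend removed (-0.15 for each, adjusted p = 0.174 and 0.182), and they are 12087 and 11629 nucleotides long. Both calls were also lost without DMSO 1, DMSO 2 or apigenin 1, and that of BMPR2 without DMSO 3 (adjusted p from 0.0966 to 0.16). Every limma fit lost both calls as well. None of 6 tested SMAD genes, 3 traps of BMP or activin and 2 E proteins was called by edgeR in all 6 libraries. At an unadjusted p under 0.05 there was 1 in each of these 3 lists (SMAD6, FSTL3 and TCF12, named after their values were seen), and DESeq2 called SMAD6 and TCF12. SMAD3, the abundant mediator of TGF-beta, had group means of 310.0 CPM with DMSO and 314 with apigenin (0.02 ± 0.057), a value named after it was seen.

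SMAD2 and SMAD3 targets split, with 2 of 15 tested higher, 3 lower and a median of 0.053. SNAI2, a mesenchymal transcription factor, rose from 7.05 ± 0.973 to 10.2 ± 0.881 CPM (adjusted p = 0.0317), and lost its call without DMSO 1, DMSO 2 or apigenin 1 (adjusted p = 0.134, 0.14 and 0.0843). CCN2, a matricellular growth factor, fell from 71.6 ± 1.11 to 49 ± 5.4 CPM (-0.55 ± 0.078, adjusted p = 0.0011). CDKN2B, a cyclin-dependent kinase inhibitor, fell from 27.3 ± 1.54 to 19.1 ± 0.406 CPM (-0.51 ± 0.085, adjusted p = 0.00298), and overlaps CDKN2B-AS1, which had 31 to 83 reads per library. Without strand their reads cannot be told apart. FN1, which encodes fibronectin, fell from 9438 ± 188 to 7412 ± 819 CPM (-0.35 ± 0.063, adjusted p = 0.00507). It overlaps ATIC, which had 3628 to 4140 reads per library, and lost its call without DMSO 1 (-0.34, adjusted p = 0.0509). Its call was also lost with limma on log2(FPKM + 0.1) and with limma without a filter (limma adjusted p up to 0.197).

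Among BMP targets other than the ID genes, 1 of 3 tested rose and 2 did not pass. ATOH8, a helix-loop-helix factor induced by BMP, rose from 4.46 ± 0.756 to 8.88 ± 1.13 CPM (0.99 ± 0.162, edgeR adjusted p = 0.00271) and was called without each library in turn. ID4 was not tested, with 0 to 11 reads per library. Of these BMP targets and the ID genes together, ATOH8 was thus higher and ID3 lower.

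**Figure D4:**
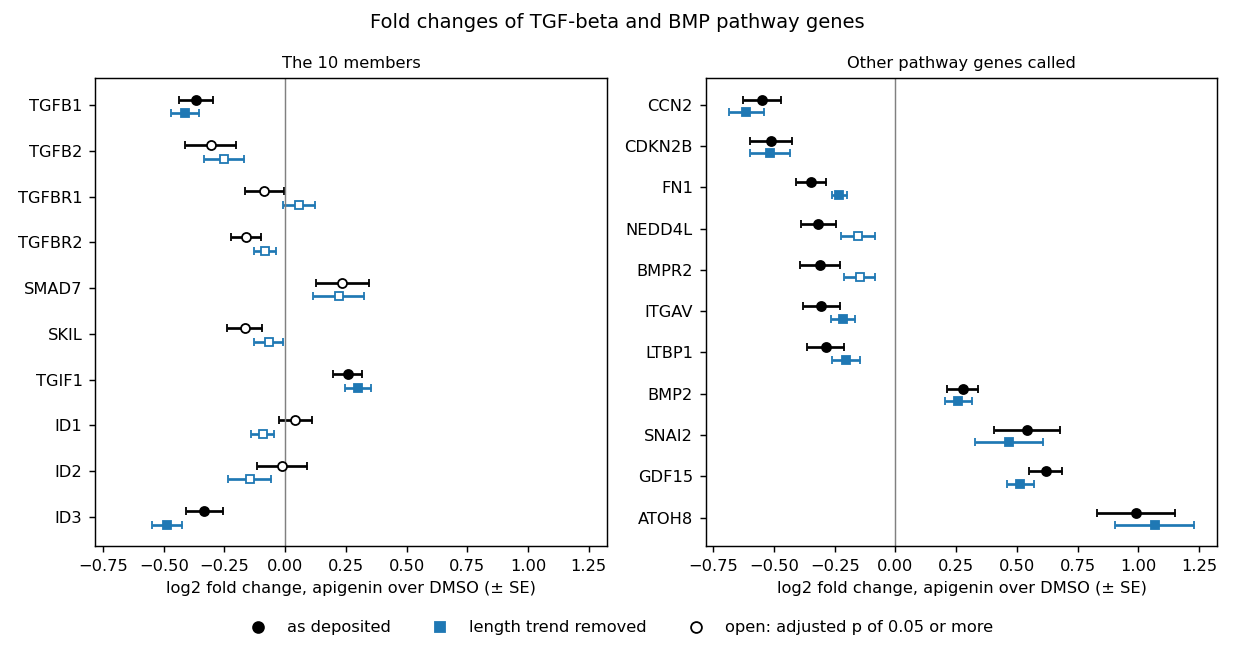
Log2 fold change, apigenin over DMSO, ± SE (x axis) for the 10 members (left) and 11 other pathway genes called (right). Black circles are from the deposited counts and blue squares with each library's length trend removed, and open symbols have an adjusted p of 0.05 or more. TGFB1, TGIF1 and ID3 stay called under both, TGFBR1 and ID1 change sign, and BMPR2 and NEDD4L lose their call.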

How the data were processed

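RNA of HCC-LM3 cells was isolated with TRIzol and sequenced from VAHTS libraries, per the labels' protocols. The tools were fastp, HISAT2 and HTSeq on GRCh38 (hg38), per the submitters' processing notes, while versions and strand setting are not stated there. The authors deposited raw read counts per gene symbol and FPKM for each sample. The deposited FPKM equal the count over a fixed gene length and the library total for 100% of values above 0 (relative tolerance 1e-04), which gave the lengths. Totals of 33882145 to 37983636 counts mean that 0 reads allow up to 0.079 to 0.0885 CPM (3 counts), which covers counting error only.

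The 3 DMSO and 3 apigenin samples, grouped by title, were compared with edgeR 4.0.16 (R 4.3.3): quasi-likelihood test, TMM factors, default filter (15173 genes kept), Benjamini-Hochberg adjustment at 0.05. The SE is the log2 fold change over the root of F. Alternatives were DESeq2 1.42.0, other scaling and filters, the replicate block, limma 3.58.1 on log2(FPKM + 1) or log2(FPKM + 0.1) (0.5 FPKM in 3 libraries, or no filter), removal of each library's lowess trend on log2 length (span 0.3), and each library left out. With the added pseudocount, FPKM fold changes of low genes are understated. The edgeR fit, the limma and DESeq2 fits and the removal of the length trend were each run on simulated data. The simulation used the dispersions that edgeR estimated from these libraries, so it cannot show that the fits suit them. Replicates differed by more than counting noise (chi-square over degrees of freedom 4.35 to 27.5), so none was a copy.

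The members and lists were chosen with earlier results of these data known. Named were all members, all called genes of the wider lists whose mean reached 1 CPM, and the 3 genes most like the called member of smallest adjusted p. Of 23059 symbols, 21752 matched RefSeq (GRCh38.p14), which gave positions, overlaps and promoters (10 of 10 members matched). The values of 1 called gene of the wider lists are not reported here.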

Additional observations from a re-analysis of the deposited data

How the results depend on the processing

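All 3 called members kept their direction in the 18 alternatives. TGFB1 was called in 14 of them and TGIF1 and ID3 in 13 each, and all 3 lost their call with limma on log2(FPKM + 1) without a filter. The reversed values belong to members never called: TGFBR1 stood at 0.057 with the length trend removed, with or without the replicate block. ID1 stood at -0.093 with the length trend removed (-0.092 with the replicate block too), at -0.0016 without DMSO 3 and at -0.022 without apigenin 3, and leaving out 1 library gave -0.022 to 0.099. ID2 stood at 0.0095 without apigenin 1 and at 0.060 without apigenin 2, within -0.12 to 0.060 over the libraries left out.

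Of all genes, 419 were called higher and 641 lower. DESeq2 called 658 higher and 909 lower, no filter gave 865 and 1096, and limma gave 303 lower on log2(FPKM + 1), 289 lower on log2(FPKM + 0.1), and 78 higher and 60 lower on log2(FPKM + 1) without a filter. Removing the length trend gave 713 higher and 771 lower, and 800 and 838 with the replicate block too. Leaving out 1 library gave 103 to 1344 higher and 157 to 1546 lower. Members called higher ranged from 0 to 1 and lower from 0 to 5 when 1 library was left out. Both were 0 under limma without a filter. Of the wider pathway genes, 5 were higher and 7 lower. They were 2 and 1 under limma without a filter, with 3 and 2 lower on log2(FPKM + 1) and log2(FPKM + 0.1). The count was 8 higher with the length trend removed and the replicate block. BMP2, SNAI2, CCN2 and ATOH8 were among the genes that lost their call under limma without a filter. Leaving out 1 library gave 3 to 10 higher and 2 to 12 lower. Fewer samples enter those fits, and the cause of any of these shifts, up or down, was not tested. Leaving out 1 DMSO library moved the DMSO mean FPKM of each member by less than 1 SD. Any 3 values give that result, so it says nothing about how stable the levels were.

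The values showed no pairing of samples by replicate number, and the labels do not say whether same-numbered samples were handled together. The deviations of same-numbered libraries had correlations of -0.017, -0.019 and -0.048, and 0 of 6 libraries correlated best with its own number. With the replicate block, 455 genes were higher and 776 lower, and TGFB2 became called (-0.32, edgeR adjusted p = 0.031).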

Other observations

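Of the wider pathway lists, 7 genes missed the threshold narrowly in the edgeR fit of all 6 libraries, with an adjusted p from 0.0506 to 0.0807, and are named after their values were seen. In each of them no apigenin library lay within the DMSO range, with 3 higher and 4 lower with apigenin. Of all tested genes, 14.4% lay above and 15% below without overlap. The 7 genes were picked by their p-values in the same libraries, so this separation adds no support. BAMBI, a decoy receptor, had 72.4 ± 0.707 CPM with DMSO and 85.8 ± 7.51 with apigenin, and SMAD6, an inhibitory SMAD of the BMP branch, had 50.7 ± 2.22 and 42.6 ± 3.3 CPM. TCF12, an E protein that ID proteins bind, had 75.4 ± 1.61 and 62.1 ± 7.14 CPM. CDKN1A, a cell cycle inhibitor, had 13.2 ± 0.708 and 17.2 ± 1.96 CPM, and SPHK1, sphingosine kinase, had 17.0 ± 1.46 and 20.9 ± 0.901. FURIN, the protease that cleaves TGF-beta precursors, had 63.4 ± 1.08 and 52.5 ± 6.68 CPM. GDF11, an activin-like ligand whose gene overlaps SARNP, had 25.4 ± 1.76 and 20.9 ± 1.33. With the length trend removed FURIN was called (-0.25, edgeR adjusted p = 0.0317) and the other 6 were not (adjusted p from 0.0512 to 0.289). TCF12, BAMBI, CDKN1A and GDF11 were called without apigenin 2 (adjusted p = 0.00817, 0.00915, 0.013 and 0.0424). That fit called 1344 genes higher and 1546 lower, against 419 and 641 in all 6 libraries.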
